A study of Mus musculus with 22 samples.

Results

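The 8 mouse loci described here are those of Rest, nonagouti (symbol a), Copg2, 4931408C20Rik, Mfsd8, Gm40469, Gm29967 and Gm34095. Each holds an ATAC-seq peak that differed between TERT-deleted and control spermatogonia, and the genes were chosen for that difference. At Copg2 the peak passed a test in 1 cell population only, not in the mean of the 3 populations. ATAC-seq maps open chromatin by letting Tn5 transposase insert adapters where DNA is accessible. All peaks overlapping a gene body or its 20 kb flanks were taken as the members, which gave 37 of the 96049 peaks measured. In each locus the peak with the smallest p in the deletion contrast is called its lead peak. There were 8 lead peaks and 29 other peaks. The lead peaks were picked by the deletion contrast, so their values in it are a description and not a test. The question was whether 1 isolated peak or the whole locus differed.

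Libraries came from testicular cells of C57BL/6 mice, aged 8 to 12 weeks. Mice of the control and deleted libraries were given tamoxifen to activate a Cre recombinase, and cells were sorted by FACS on day 7. Control libraries (n = 8) are titled TERT-hetero and deleted libraries (n = 9) TERT-deleted, and the genotype entry TertCreER/+:Rosalsl-Tdtomato/+ is the same for both. The controls thus also carry the Cre allele at Tert and a reporter, and the genotype rests on the titles. Both genotypes were sorted into MCAM-high KIT-negative cells (3 control, 3 deleted), MCAM-medium KIT-negative cells (2 and 3) and KIT-positive cells (3 and 3). A further 5 libraries were made from round spermatids or spermatocytes of the genotype TertTdtomato/+, for which no day after tamoxifen is given. For 4 of them title and library name name different cell types, so they form 1 group, called later germ cells. Control and deleted cells came from different mice. An effect of the deletion and any other difference between these mice cannot be told apart. Library names carry 1 number across populations, 3 for control and 3 for deleted cells, which are called sources here. The names of all 5 later libraries carry the same number, so they are 1 source.

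TERT is the catalytic subunit of telomerase, and spermatogonia are the mitotic germ cells that sustain sperm production, with KIT marking those that differentiate. The 8 genes share no pathway. Rest encodes a zinc finger repressor of neuronal genes, nonagouti encodes the agouti signalling protein that switches hair pigment through the melanocortin receptor, and Copg2 encodes a coatomer subunit of the vesicle coat. Mfsd8 encodes a lysosomal membrane protein, and loss of its human counterpart causes a neuronal ceroid lipofuscinosis. 4931408C20Rik and Gm40469 are predicted protein-coding genes, and Gm29967 and Gm34095 are long noncoding RNA genes. All coordinates are given in GRCm38 (mm10).

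Total counts in peaks were 922085 to 2657910 per control, 1071255 to 1802877 per deleted and 1433230 to 3358377 per later library. Library values are counts scaled to these totals (CPM), so 1 count is worth more in shallow libraries. The peak near Tert did not check the labels: its log2 fold change was -0.28 ± 0.20 (SE, edgeR adjusted p = 0.976), and which part of the gene was removed is not stated in the labels. Gene-end peaks of markers of undifferentiated spermatogonia summed to 298 to 405 CPM in control, 314 to 428 CPM in deleted and 134 to 169 CPM in later libraries. Sertoli markers, for other cells a gate could hold, summed to 66.2 to 87.3, 42.2 to 96.2 and 34.8 to 41.2 CPM. Leydig markers summed to 32.5 to 73.1, 30.3 to 69.6 and 12.0 to 17 CPM in the same order. Immune markers summed to 25.4 to 60.5, 30.3 to 56.7 and 14 to 20 CPM. Peritubular and endothelial markers summed to 60.4 to 94.0, 55.4 to 100 and 15.8 to 31.4 CPM. None of the 22 tested marker peaks of germ cells and none of the 13 of other cells passed in the deletion contrast, and control and deleted ranges overlapped for each list.

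In 3 loci the lead peak covered the stretch just upstream of the annotated start, and these promoters are shown because the difference between genotypes lay on them. They are the 250 bases before the RefSeq start (GRCm38.p6), 5′ to 3′ on the gene's strand. Capitals mark matches to 6 motifs searched on both strands, none of which contains another. They were the TATA box TATAAA, the CCAAT box, the GC box GGGCGG, the ETS motif CCGGAAG, the E-box CACGTG and the cyclic AMP response element TGACGTCA.
4931408C20Rik (chr1:26687461-26687710, minus strand): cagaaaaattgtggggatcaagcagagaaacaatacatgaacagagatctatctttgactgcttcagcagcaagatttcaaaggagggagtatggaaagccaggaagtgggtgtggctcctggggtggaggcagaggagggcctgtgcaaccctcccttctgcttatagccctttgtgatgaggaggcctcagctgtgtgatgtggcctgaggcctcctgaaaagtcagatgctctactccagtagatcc
Mfsd8 (chr3:40846855-40847104, minus strand): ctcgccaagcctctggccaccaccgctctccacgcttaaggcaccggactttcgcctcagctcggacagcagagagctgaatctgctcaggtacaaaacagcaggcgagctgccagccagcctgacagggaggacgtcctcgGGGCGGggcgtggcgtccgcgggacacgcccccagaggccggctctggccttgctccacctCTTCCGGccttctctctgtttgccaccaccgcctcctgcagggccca
Gm34095 (chr15:84576658-84576907, minus strand): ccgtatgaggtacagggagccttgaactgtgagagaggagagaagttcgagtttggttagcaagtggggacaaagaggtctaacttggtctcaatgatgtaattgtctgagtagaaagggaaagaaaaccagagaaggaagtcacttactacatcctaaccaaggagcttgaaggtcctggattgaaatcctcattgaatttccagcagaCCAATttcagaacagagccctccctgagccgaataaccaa

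The 3 promoters differed in make-up. That of Mfsd8 had 67.2% G and C and 18 CpG dinucleotides, that of 4931408C20Rik 51.2% and 0, and that of Gm34095 45.2% and 3. Over 32851 RefSeq promoters of the same length the medians were 52.4% and 6. The Mfsd8 promoter held GGGCGG, found in 32.7% of promoters, and CCGGAAG on the opposite strand, found in 6.91%. The Gm34095 promoter held CCAAT, found in 33.8%, at 40 bases before the start. The 4931408C20Rik promoter held no match. TATAAA was found in 12.4% of promoters, CACGTG in 6.02% and TGACGTCA in 1.55%. A match describes letters only and shows no bound factor. A promoter was listed for 6 of the 8 genes, not for Rest and Gm29967. The Copg2 promoter lay in a peak other than its lead peak, and the listed promoters of nonagouti and Gm40469 lay in no peak.

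Over the tested peaks of the set, only lead peaks passed in the deletion contrast. In the mean of the 3 populations, 7 of 8 lead peaks passed an adjusted p of 0.05 in edgeR's quasi-likelihood test, 6 higher and 1 lower in deleted cells. The Copg2 lead peak did not pass. Of all 57289 peaks tested, 0.124% passed, 0.103% higher and 0.0209% lower. That count follows from how the loci were chosen. None of the 21 other peaks that could be tested passed, and 8 more were too low to test. DESeq2 and limma voom also gave 0. With 0.124% of all peaks passing, 0 of 21 is near the share over all peaks and does not set these peaks apart. At an unadjusted p under 0.05, 2 of the 21 (9.52%) were reached, against 5.53% of all peaks. The median log2 fold change was 1.67 over the 8 lead peaks (range -1.98 to 3.27), 0.03 over the 21 other peaks (range -0.79 to 2.12) and -0.01 over all peaks. Being tested required counts in some group, so the 21 are not all the other peaks. Untested peaks of Copg2 and nonagouti are described with their loci.

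All 9 deleted libraries lay above all 8 control libraries at 4 lead peaks, those of Rest, Mfsd8, Gm29967 and Gm34095, as at 0.0436% of tested peaks. They lay below all controls at the Gm40469 lead peak, as at 0.00873%. At nonagouti, 4931408C20Rik and Copg2, 6, 7 and 2 of the 9 deleted libraries exceeded the highest control.

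**Figure D1:**
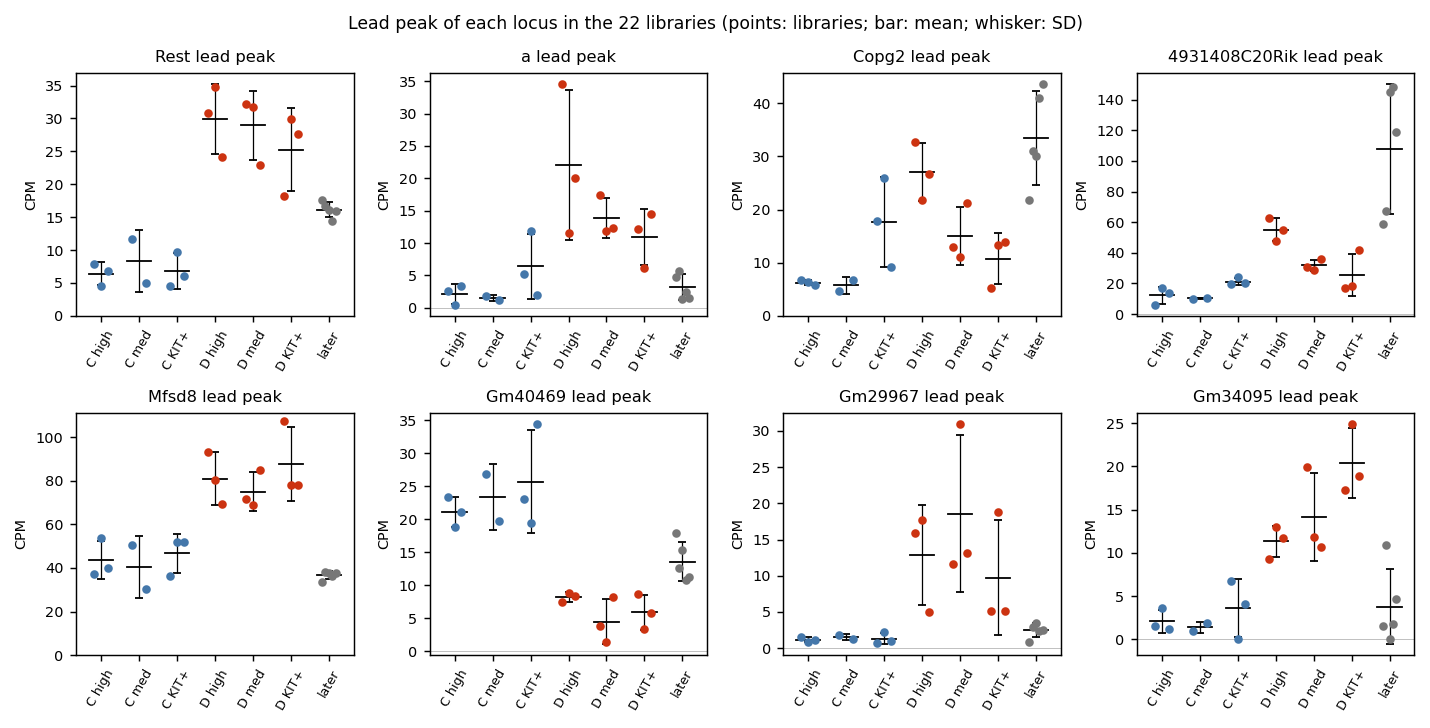
Signal of the 8 lead peaks in CPM (vertical axis) in the 22 libraries, by group (C control, D deleted; high and med for MCAM-high and MCAM-medium KIT-negative cells, KIT+ for KIT-positive cells; later for later germ cells); points are libraries, bars means and whiskers SD. Deleted and control libraries do not overlap at Rest, Mfsd8, Gm40469, Gm29967 and Gm34095, and later germ cells exceed most or all spermatogonia at Copg2 and 4931408C20Rik.

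The Rest lead peak (chr5:77281456-77282624) lay inside the gene, 3808 bp from its upper end and 15962 bp from its lower end. Its signal was 4.47, 6.47 and 11.6 CPM in the lowest, median and highest control library, and 18.2, 30 and 34.8 CPM in the deleted ones. Every deleted library was above every control. The 5 later libraries were at 17.6, 16.6, 16, 14.5 and 15.9 CPM, all between the highest control and the lowest deleted library. Deleted against control, MCAM-high cells had a log2 fold change of 2.19 ± 0.38 (SE), MCAM-medium cells of 1.76 ± 0.43 and KIT-positive cells of 1.95 ± 0.41, with intervals of 1 SE that meet. The peak at the lower end of Rest (77265498 to 77266761), the broadest of the locus, had 30.5 ± 8.31 CPM in controls (SD, n = 8) and 31.6 ± 7.12 CPM in deleted libraries (n = 9), a log2 fold change of 0.03 ± 0.19. The 8 other peaks of the locus summed to 62.5 ± 14.3 and 61.7 ± 12.2 CPM. A single internal peak thus differed, with the gene-end peak at the same level in both genotypes. Of 78 tested neighbours within 1000 kb none passed, and their log2 fold changes ran from -0.97 to 0.64.

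The nonagouti lead peak (chr2:155020260-155020637) lay inside the annotated gene. In MCAM-high cells it had 2.63, 0.449 and 3.43 CPM in the controls and 34.5, 11.6 and 20 CPM in the deleted libraries. In MCAM-medium cells the controls were at 1.86 and 1.24 CPM and the deleted libraries at 17.4, 11.8 and 12.3 CPM. In KIT-positive cells, 5.22, 11.9 and 2.03 CPM stood against 12.1, 6.10 and 14.6 CPM. The genotypes did not overlap in the KIT-negative populations and overlapped in KIT-positive cells. The log2 fold changes were 3.29 ± 0.58, 3.08 ± 0.73 and 0.92 ± 0.57 in this order (SE). Later germ cells had 4.76, 5.73, 1.40, 2.41 and 1.54 CPM, within the control range. A neighbouring peak whose centre was 1.01 kb away (155018936 to 155019948) had 18 ± 7.90 CPM in controls and 22.7 ± 10.5 CPM in deleted libraries, a log2 fold change of 0.39 ± 0.25. The next peak thus did not pass, and 0 of 68 tested neighbours within 1000 kb passed. A peak at 154970849 to 154971298, too low to test, had 0.548 ± 0.631 CPM in controls and 1.82 ± 1.81 CPM in deleted libraries. Another at 154943155 to 154943355, also too low to test, had 2.79 ± 1.38 and 2.18 ± 2.04 CPM.

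The Copg2 lead peak (chr6:30804485-30805754) lay in the gene body, 91.5 kb from the peak at the promoter. In MCAM-high cells it had 6.77, 6.28 and 5.71 CPM in the controls and 32.7, 21.8 and 26.7 CPM in the deleted libraries. In MCAM-medium cells the controls were at 4.64 and 6.81 CPM and the deleted libraries at 12.9, 11.1 and 21.3 CPM. In KIT-positive cells the controls were at 17.9, 26 and 9.13 CPM and the deleted libraries at 5.19, 13.3 and 13.8 CPM. The direction was thus not the same in all populations: the log2 fold changes were 2.06 ± 0.42, 1.40 ± 0.51 and -0.60 ± 0.43 (SE). Their mean, 0.95 ± 0.26, did not pass (edgeR adjusted p = 0.243). Later germ cells held 21.7, 30.9, 30, 41.0 and 43.7 CPM, of which 4 were above the highest control library and 2 above the highest deleted one. The peak just below the lead peak (30803382 to 30803772) was too low to test in the deletion contrast. Its median was 0.310 CPM in controls and 3.64 CPM in deleted libraries, and 6 of the 9 deleted libraries exceeded the highest control. Whether the difference extends beyond the lead peak there was thus not tested. The promoter peak of Copg2 (30896095 to 30897139) was at 53.6 ± 17.4 CPM in controls and 56.5 ± 14.9 CPM in deleted libraries, a log2 fold change of 0.08 ± 0.17. One flank peak near Mest (30731761 to 30732159) had a fitted mean log2 fold change of 2.12 ± 0.67 (edgeR adjusted p = 0.447). That value rests on 0 counts in both control MCAM-medium libraries, and the mean level was 5.56 CPM in controls and 5.46 CPM in deleted libraries. Of 64 tested neighbours within 1000 kb none passed, and 2 had a larger mean log2 fold change than the lead peak.

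The 4931408C20Rik lead peak (chr1:26686845-26688325) covered the start of that gene and lay within the noncoding gene Gm31136. In MCAM-high cells it had 6.02, 17.1 and 13.7 CPM in the controls and 62.5, 47.7 and 55.0 CPM in the deleted libraries. In MCAM-medium cells 9.75 and 10.5 CPM stood against 30.9, 28.8 and 36.0 CPM. In KIT-positive cells 19.4, 23.9 and 20.3 CPM stood against 17.3, 18.3 and 41.5 CPM, where the genotypes overlapped. The log2 fold changes were 2.16 ± 0.33, 1.65 ± 0.40 and 0.29 ± 0.34 (SE). Later germ cells had the most signal, 59.0, 67.0, 145, 148 and 119 CPM, with 4 of 5 libraries above the highest deleted one. No other peak lay within 20 kb, so the locus gave no neighbour for comparison. Of 16 tested peaks within 1000 kb none passed, and the 1 within 100 kb had a log2 fold change of 0.40.

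The Mfsd8 lead peak (chr3:40846418-40847394) covered the promoter shown above. The lowest, median and highest control libraries had 30.3, 45.3 and 53.9 CPM and the deleted ones 68.7, 78.2 and 107 CPM. The groups did not overlap. Its log2 fold change was the most even of the 8, at 0.87 ± 0.25, 0.88 ± 0.28 and 0.90 ± 0.25 (SE) in MCAM-high, MCAM-medium and KIT-positive cells. Later germ cells had 33.6, 38.4, 37.7, 36.2 and 37.5 CPM, within the control range. The other peak of the locus, at an end of Plk4, a kinase of centriole duplication, had 48.5 ± 12.1 CPM in controls and 44.5 ± 14.3 CPM in deleted libraries. Of 57 tested peaks within 1000 kb none passed. Among them, 1 had a larger mean log2 fold change than the lead peak (0.91 ± 0.72 against 0.88 ± 0.15, SE).

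The Mfsd8 promoter has a near-identical copy at the start of 6430590A07Rik, 47.3 kb away, found after the values were seen. Of 243 aligned bases 238 were equal (97.9%). Counted from 1 at the 5′ end of the 300-base Mfsd8 window, with the Mfsd8 base first, the differences were T214G, A254G, T262C, C270A and A295G. The stretches around the first of these show how alike the copies are, with the differing base in capitals.
Mfsd8 stretch (chr3:40846877-40846906, minus strand): cacctcttccggcctTctctctgtttgcca
6430590A07Rik stretch (chr3:40894184-40894213, minus strand): cacctcttccggcctGctctctgtttgcca

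The peak at the copy (chr3:40893704-40894638) had a log2 fold change of -0.35 ± 0.14 (edgeR adjusted p = 0.774), and its sign was negative in each population (-0.36, -0.47 and -0.21). Of the signal of both peaks together, the Mfsd8 peak held 28.8 ± 4.27% in control (SD, n = 8; 24.8 to 37.2%), 48.9 ± 3.77% in deleted (n = 9; 43.0 to 54.7%) and 50.6 ± 6.10% in later libraries (n = 5; 43.6 to 59.8%). The later libraries thus had a share in or above the deleted range and a Mfsd8 level within the control range. The sum of both peaks was 153 ± 24 CPM in control, 168 ± 31.7 CPM in deleted and 73.0 ± 6.16 CPM in later libraries, and control and deleted libraries overlapped in it. Reads from the shared bases can be placed at either copy, so the split between the peaks is uncertain. Whether read placement plays a part in the difference was not tested.

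**Figure D2:**
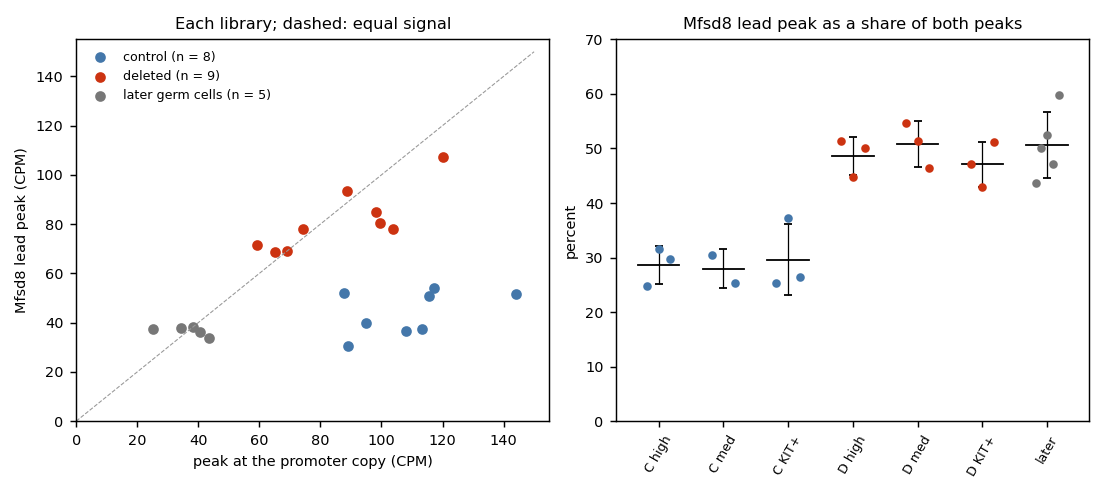
Left, signal of the Mfsd8 lead peak against that of the peak at its promoter copy, both in CPM, 1 point per library; right, the Mfsd8 peak as a percentage of both, by group (C control, D deleted; points libraries, bars means, whiskers SD). Control libraries lie at 24.8 to 37.2% and deleted ones at 43.0 to 54.7%, with later germ cells at 43.6 to 59.8%.

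Gm40469 was the 1 locus with less signal in deleted cells. Its lead peak (chr8:20550017-20550886) had 18.9, 22.1 and 34.5 CPM in the lowest, median and highest control library and 1.48, 7.47 and 8.87 CPM in the deleted ones. Later germ cells had 17.9, 12.6, 15.3, 10.9 and 11.3 CPM, all between the lowest control and the highest deleted library. MCAM-high cells had a log2 fold change of -1.37 ± 0.43, MCAM-medium cells of -2.39 ± 0.50 and KIT-positive cells of -2.20 ± 0.45 (SE). The other peak of the locus, whose centre was 7.27 kb away, had 35.9 ± 10 CPM in controls and 27.9 ± 11.4 CPM in deleted libraries, and its log2 fold change of -0.41 ± 0.18 did not pass (edgeR adjusted p = 0.813).

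At Gm40469 alone of the 8 loci, further peaks in the wider neighbourhood passed. Of 23 tested peaks within 1000 kb, 3 were lower and 1 higher in deleted cells. A peak at the pseudogene Gm10060 (19784468 to 19785190) had 59.1 ± 14.4 CPM in controls and 32.1 ± 12.3 CPM in deleted libraries. A peak in the transcribed pseudogene 2610005L07Rik (20424220 to 20425093) had 41.3 ± 8.91 and 17.1 ± 6.86 CPM, and an intergenic peak (20122075 to 20122916) 48.2 ± 7.29 and 16.8 ± 6.11 CPM. The peak at 20379413 to 20379720 went the other way, with 2.40 ± 2.30 CPM in controls and 8.63 ± 2.98 CPM in deleted libraries. The median log2 fold change of the 23 was 0.76, and it was 1.66 over the 4 within 100 kb. At the other loci the median over tested peaks within 1000 kb was between -0.08 and 0.16. The stretch thus held differences in both directions. This stretch was examined after its values were seen.

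**Figure D3:**
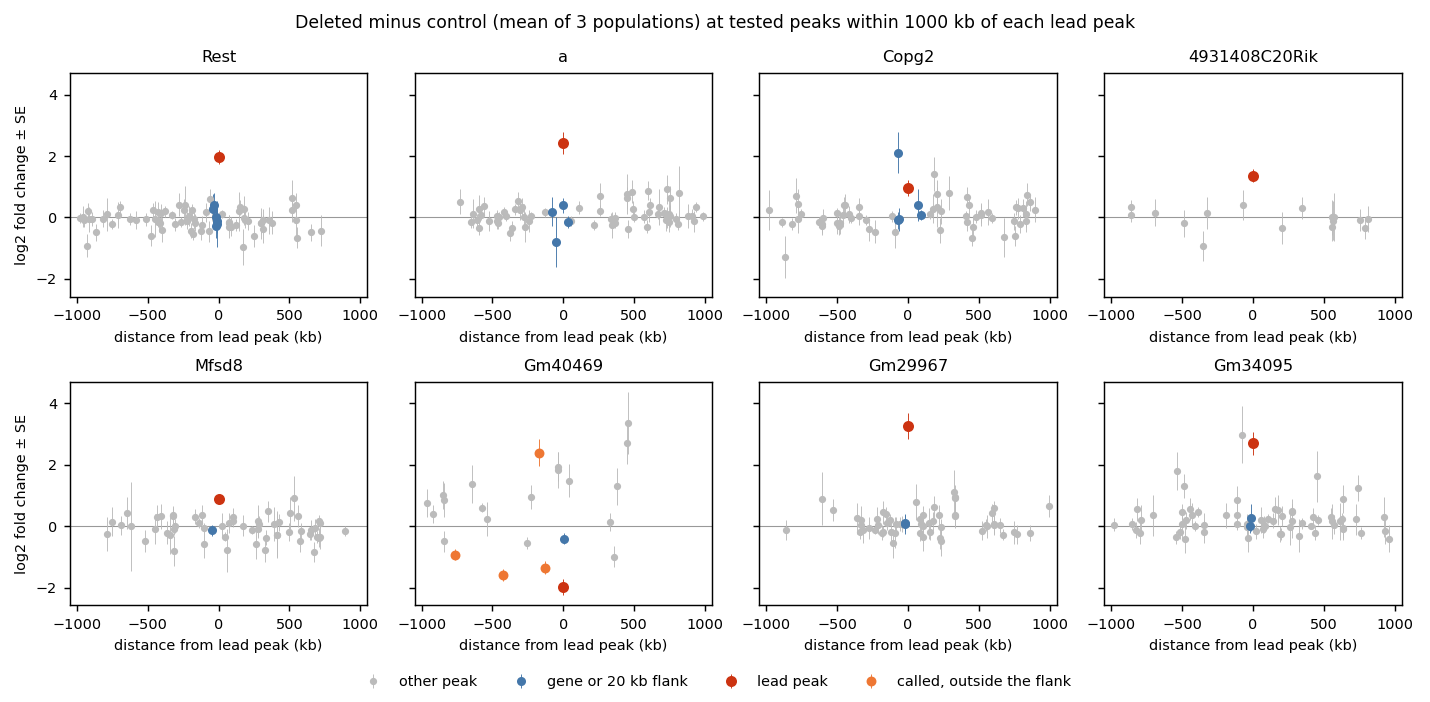
Log2 fold change of deleted against control, averaged over 3 populations (vertical axis, whiskers SE), of all tested peaks within 1000 kb of each lead peak, against distance from the lead peak in kb. At 7 loci no neighbour passed the test, while Gm40469 has 4 neighbours that passed, 3 lower and 1 higher.

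The Gm29967 lead peak (chr18:80382627-80383071), inside the noncoding gene, was low in every control and later library. Control libraries had 0.746, 1.19 and 2.17 CPM (lowest, median, highest) and deleted libraries 5.00, 13.1 and 31.0 CPM. Later germ cells had 0.893, 2.86, 3.49, 2.41 and 2.57 CPM, of which 4 exceeded the highest control and none reached the lowest deleted library. By population (MCAM-high, MCAM-medium, KIT-positive) the log2 fold change was 3.33 ± 0.67, 3.49 ± 0.75 and 2.98 ± 0.74 (SE). Among the deleted libraries, those of source 2 averaged 22.5 CPM and those of sources 1 and 3 10.9 and 7.73 CPM. The peaks in the flanks, in and at Kcng2, a potassium channel subunit gene, had log2 fold changes of 0.06 ± 0.30 and 0.12 ± 0.29. None of 59 tested peaks within 1000 kb passed.

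The Gm34095 lead peak (chr15:84576365-84576889) covered 232 of the 250 promoter bases shown above. Control libraries had 0, 1.68 and 6.71 CPM (lowest, median, highest) and deleted libraries 9.33, 13 and 25 CPM, with no overlap. Later germ cells had 1.49, 10.9, 0, 1.81 and 4.62 CPM, so 1 of 5 lay within the deleted range. The 3 populations, in the same order, had log2 fold changes of 2.37 ± 0.58, 3.34 ± 0.73 and 2.38 ± 0.55 (SE). The peak within the gene, 9.72 kb away, had 4.26 ± 1.36 CPM in controls and 5.00 ± 3.14 CPM in deleted libraries. A peak at an end of Rtl6, a retrotransposon-derived gene, had 17.9 ± 3.26 and 18.5 ± 5.98 CPM. Of 68 tested neighbours within 1000 kb none passed. One of them, within 100 kb, had a larger log2 fold change than the lead peak (2.98 ± 0.92, edgeR adjusted p = 0.416).

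The fitted log2 fold changes were more even over the populations at some lead peaks than at others. They include the values that chose the loci, at Copg2 the MCAM-high value, so they are a description and not a test. The sign was the same in all 3 populations at every lead peak except that of Copg2. At nonagouti, Copg2 and 4931408C20Rik the KIT-positive value was below the MCAM-high value by 2.37 ± 0.83, 2.66 ± 0.60 and 1.87 ± 0.48 on the log2 scale (SE). None of these differences passed over all peaks (edgeR adjusted p = 0.913, 0.768 and 0.864), and 0% of peaks passed that test, with 2855 at an unadjusted p under 0.05. Within single populations 5 lead peaks passed in MCAM-high cells (Rest, nonagouti, Copg2, 4931408C20Rik and Gm29967), where 0.0489% of all peaks did. That count was 1 without control replicate 2, 2 without deleted replicate 1 or 2, and 3 without control replicate 1 or 3. No lead peak passed in MCAM-medium (0.00873% of all peaks) or KIT-positive cells (0.00349%), and no other peak passed in any population. At an unadjusted p under 0.05, 1 of the 21 other peaks was reached in each population (4.76%), against 5.86%, 4.25% and 3.59% of all peaks.

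**Figure D4:**
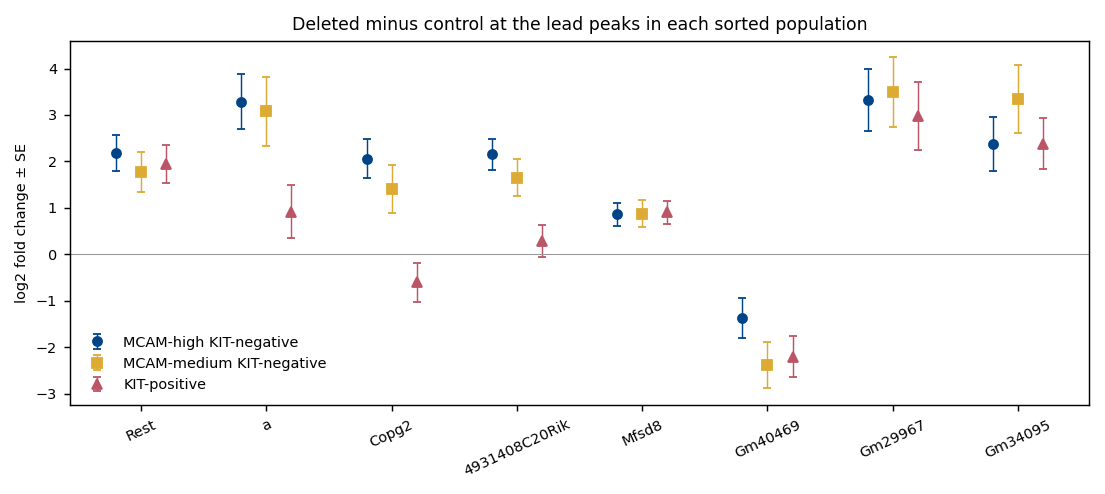
Log2 fold change of deleted against control at the 8 lead peaks (vertical axis, whiskers SE) in MCAM-high KIT-negative, MCAM-medium KIT-negative and KIT-positive cells. The 3 values lie close together at Rest and Mfsd8, and the KIT-positive value lies lowest at nonagouti, Copg2 and 4931408C20Rik.

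Contrasts between control populations show how the other peaks differed with differentiation, a comparison that did not choose the loci. Its filter, scaling and spread came from the fit of all 17 spermatogonial libraries, deleted ones included. Between control KIT-positive and MCAM-high cells, 3 of 21 other peaks passed, 2 higher and 1 lower, which is 14.3% against 15.8% of all peaks (9.64% higher, 6.11% lower). The count was 2 to 4 when 1 library was left out, and 1 without control source 2. The Rest peak at 77272850 to 77273175 fell, from 4.89, 15.7 and 9.71 CPM to 0, 0 and 1.01 CPM (2 counts against 65; count ratio 0.0482, 95% interval 0.00572 to 0.181; edgeR adjusted p = 0.00468). The flank peak near Mest rose from 1.5, 0 and 0 CPM to 11.2, 20.6 and 11.2 CPM (56 counts against 4; ratio 21.9, interval 8.11 to 83.3; edgeR adjusted p = 7.0e-05). The peak at the upper end of nonagouti rose by a log2 value of 0.88 ± 0.32 (SE; adjusted p = 0.0495 in edgeR), from 29.0, 20.6 and 24 CPM to 38.8, 53.1 and 31.5 CPM. Deleted cells had, at the Mest flank peak, 1.87, 2.73 and 0.833 CPM in MCAM-high and 16.4, 9.43 and 10.2 CPM in KIT-positive cells. Against MCAM-medium cells 2 of 21 passed (9.32% of all peaks), the same Rest and Mest peaks. The Mest peak had 0 counts in both MCAM-medium controls. With 3 counts over the group put in their place, it was 16.6-fold higher in KIT-positive cells. The lower end of the 95% interval of the count ratio was 13.1. Between MCAM-medium and MCAM-high controls none passed, as for 0% of all peaks, with 0 of 21 and 932 of 57289 at an unadjusted p under 0.05.

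Later germ cells differed from control KIT-positive spermatogonia at 9 of 24 other peaks tested, 6 higher and 3 lower, against 52% of all 73134 peaks (29.2% higher, 22.8% lower). The 5 later libraries are of 1 source, so the spread among them is that within this source. At Copg2, 4 of the 7 other peaks passed. A peak inside Tsga13, a testis-expressed neighbour (30915407 to 30915798), rose from 0, 1.08 and 0 CPM to 18.5, 19.5, 26.5, 18.1 and 18.5 CPM (200 counts against 1; ratio 83.5, 95% interval 14.8 to 3314; edgeR adjusted p = 8.36e-09). A peak just below the Copg2 lead peak (30803382 to 30803772) rose from 0, 3.25 and 0 CPM to 7.74, 11.5, 4.88, 6.63 and 5.65 CPM (75 counts against 3; ratio 10.4, interval 3.44 to 51.7; edgeR adjusted p = 0.00354). The Mest flank peak fell by 3.47 (log2, edgeR adjusted p = 6.98e-05) and the peak at 30876654 to 30877027 fell by 2.40 (edgeR adjusted p = 0.0240). The Copg2 locus thus held peaks that rose and peaks that fell in later germ cells, as did 29.2% and 22.8% of all peaks. Its promoter peak did not pass.

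At nonagouti, a peak at 154970849 to 154971298 rose from 1.49, 0 and 0 CPM to 14.9, 20.1, 16, 19.3 and 29.8 CPM (198 counts against 2; ratio 41.3, interval 11.3 to 344; edgeR adjusted p = 3.64e-08). At Gm29967 the peak in Kcng2 fell by 3.34 ± 0.53 on the log2 scale (adjusted p = 5.87e-07 in edgeR), and a peak at 80395416 to 80395782 rose from 0.746, 2.17 and 1.01 CPM to 14, 16.6, 9.07, 6.63 and 12.3 CPM (edgeR adjusted p = 1.05e-04). The other peak of Gm40469 rose by 0.79 ± 0.25 and the Rtl6 peak of Gm34095 by 1.08 ± 0.30 (edgeR adjusted p = 0.00710 and 0.00222). No other peak of Rest or Mfsd8 passed. The later libraries differ from the KIT-positive ones in genotype as well as in cell type, and no day after tamoxifen is given for them. Effects of genotype, cell type and treatment cannot be told apart.

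**Figure D5:**
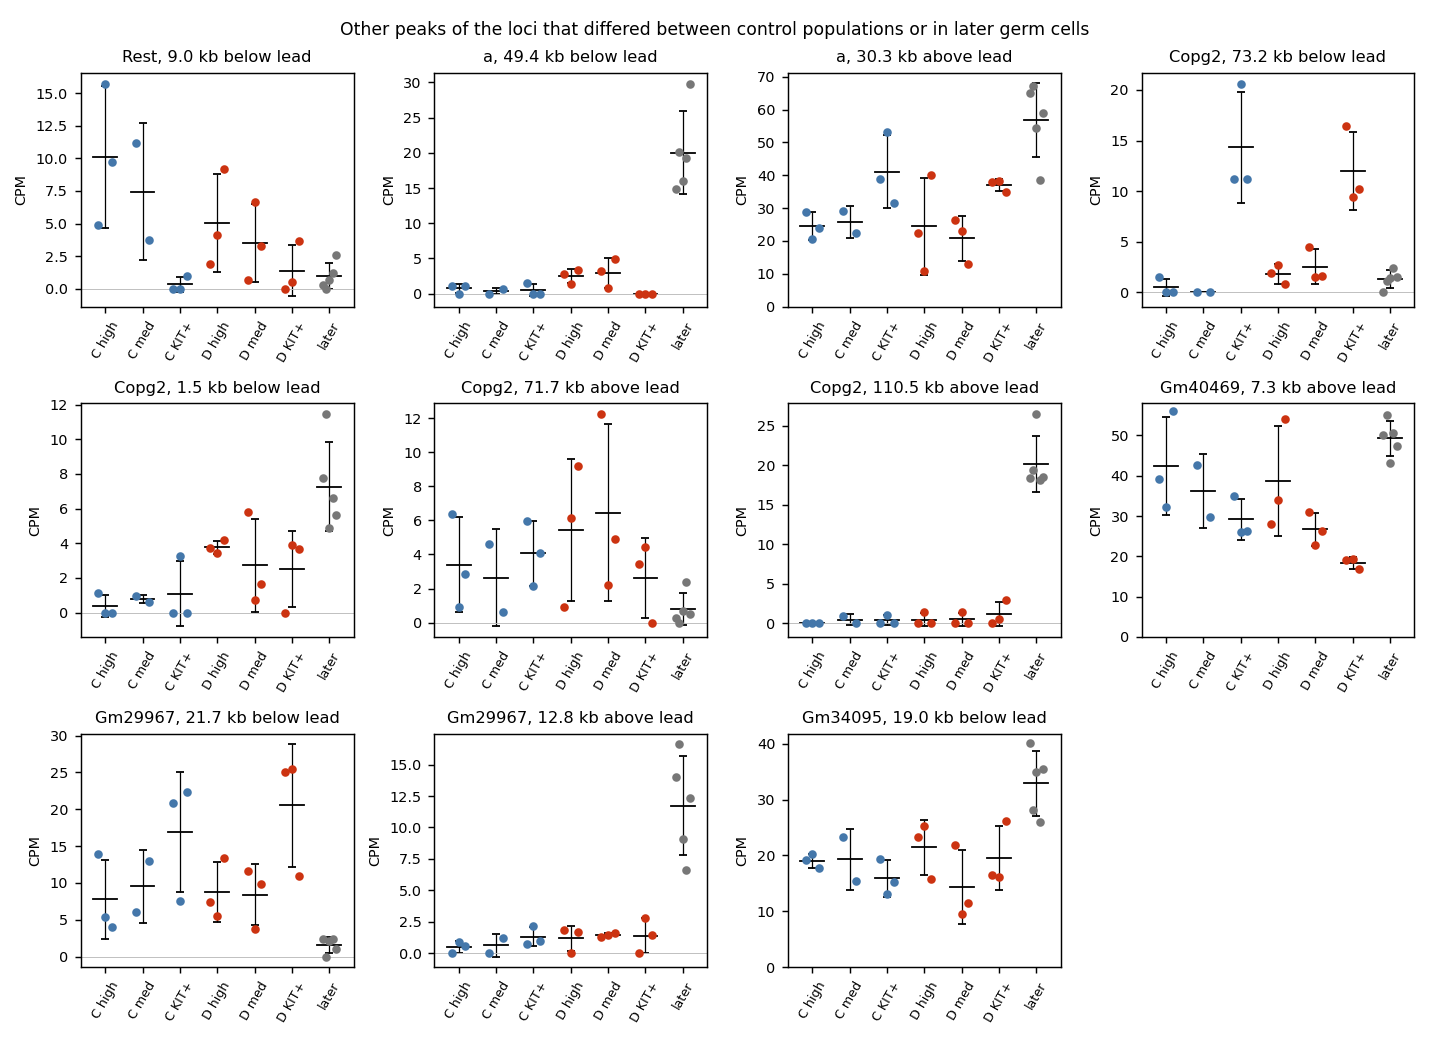
Signal in CPM (vertical axis) of the 11 other peaks that passed between control populations or in later germ cells, by group (C control, D deleted; points libraries, bars means, whiskers SD); each panel gives the locus and the distance from its lead peak. The peaks in Tsga13 and at 49.4 kb below the nonagouti lead peak are at 0 to 4.91 CPM in spermatogonia and at 14.9 to 29.8 CPM in later germ cells.

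The peaks whose log2 CPM moved most like a lead peak were sought over the 17 spermatogonial libraries, outside the 8 loci. For Rest they were a pair on the Y chromosome nearest to Gm20830 (Pearson r = 0.92 each), with 0.174 and 0.436 CPM on average in control and 18.1 and 9.25 CPM in deleted libraries. Gm29967 shared one of these Y peaks (r = 0.89), and Gm34095 was closest to another Y peak (0.87). For nonagouti, Copg2 and 4931408C20Rik the closest peak was the same one on the unplaced contig JH584304 (53807 to 54368; r = 0.88, 0.89 and 0.92), at 39.9 CPM in controls and 85.6 CPM in deleted libraries. Gm40469 was closest to the neighbouring chromosome 8 peaks at 20122075 (0.97) and 20424220 (0.94) described above. Mfsd8 had an r of 0.84 with a peak in Zfp592. These libraries share the genotype difference that chose the loci, so the values describe likeness only.

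Genes that work with the named genes gave 1 call at their gene-end peaks, that of Mfsd8 itself. In the mean deletion contrast 0.044% of 15910 gene-end peaks passed. None of 12 REST corepressors and partners (median log2 fold change -0.06), 21 REST target genes (-0.05), 9 coatomer subunits (-0.08) or 9 genes of agouti and melanocortin signalling (-0.04) passed, and the median over all gene-end peaks was 0.00. The largest value per list was -0.28 at Ehmt1, a histone methyltransferase, 0.75 at Scg2, a secretogranin, 0.35 at Arcn1, a coatomer subunit, and 0.28 at Atrn, the attractin of agouti signalling. Of 10 ceroid lipofuscinosis genes only Mfsd8 passed, which was chosen for it. The median of that list was -0.10, and Cln8, at -1.91 ± 0.67 (SE), did not pass (edgeR adjusted p = 0.594).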

How the data were processed

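The deposited table holds raw read counts (whole numbers) for each peak in 22 ATAC-seq libraries. FastQC, Bowtie2, SAMtools and Picard and the builds mm10, GRCm38 and hg19 are named in the submitters' processing notes without a role. The peak caller, counting tool, any Tn5 offset and any duplicate filter are not given in the sources used here, nor whether peak starts count from 0 or 1, and coordinates are as deposited. Tests used edgeR 4.0.16 under R 4.3.3 (TMM, filterByExpr by group, quasi-likelihood F tests, Benjamini-Hochberg adjustment over all peaks, threshold 0.05), in a fit of the 17 spermatogonial libraries (57289 peaks, 11 residual degrees of freedom) and a fit of the 13 heterozygous libraries (73134 peaks). The fits were tested on simulated data. Deletion values are the mean of 3 population contrasts unless a population is named. Each SE was computed as the size of the log2 fold change over the root of its F statistic. Library values are CPM of total counts, without TMM. Genes and promoters are from RefSeq (GRCm38.p6). A gene end means within 1 kb of an annotated end, exons and introns were not assigned, and no genome sequence was used. The members and lists were chosen with earlier results of these data known. Named are the lead peaks, other peaks that passed in any contrast (at most 3 per locus and contrast by size, with the peak at 30876654 of Copg2 added), the 2 most alike peaks per lead peak (some are not reported here), and the passing or largest gene per list; other values in the loci were chosen after they were seen. The labels do not tie replicates to separate mice, and p-values then cover only the spread of these libraries, which may be technical. Count intervals cover counting error only, since amplified reads are not independent. Even numbers made up 48.8 to 73.9% of nonzero counts in spermatogonial libraries and 49.3 to 49.9% in later ones. Where counts come in pairs, the count intervals are too narrow. Alternatives were DESeq2 1.42.0, limma 3.58.1 voom, other scaling, filters and flanks, a replicate block, and leaving out libraries or sources.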

Additional observations from a re-analysis of the deposited data

Results flagged for a closer look

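The later libraries were compared with each other at the 8 lead peaks and the 9 other peaks that passed against KIT-positive cells. At 2 of these 17 peaks 1 library stood far from the other 4. Chance gives about 1 in 20 where libraries are of 1 kind with a normal spread. The later libraries are from round spermatids or spermatocytes, so that rate may not hold for them. At the Copg2 peak at 30876654, later replicate 4 was highest at 2.41 CPM, with the next library at 0.698 CPM. This peak held only 7 counts over the 5 later libraries. Its gap was 0.711 of the range, barely over the cutoff of 0.71. At the Tsga13 peak at 30915407, in the Copg2 locus, later replicate 3 was highest at 26.5 CPM, with the next at 19.5 CPM.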

How the results depend on the processing

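The number of lead peaks that passed in the mean of 3 populations was 6 to 7 over 14 alternatives and 7 in all 17 fits without 1 library (7 in the report). No other peak of the loci passed in any of these, flanks of 5 and 100 kb included (12 and 73 other peaks tested). With windows of 500 and 1000 kb, chosen after seeing the data, 3 and 4 passed, all at Gm40469. Mfsd8 lost its call without deleted source 1 (edgeR adjusted p = 0.0631), so that 0 genes of the lists passed in place of 1. No lead peak reversed. The count in MCAM-high cells (5) was 3 with limma voom and a source correlation, 3 without X, Y and unplaced contigs, 3 without control source 3, 1 without deleted source 1, 2 without deleted source 2, and 1 to 5 when 1 library was left out. The Copg2 call there was lost in 8 of 14 alternatives and in 6 of the 17 fits without 1 library. The count between control populations (3) was 1 without control source 2 and 2 to 4 without 1 library; that in later germ cells (9) was 8 to 10 without 1 library. The causes were not tested. Same-numbered libraries of the 2 genotypes did not deviate together (no correlation over 0.1). Those of the same genotype did not either (correlations of -0.42 to 0.05), so this check cannot tell whether a number marks a shared origin. The numbers are not taken as pairs. A fit with the replicate block gave 7 lead peaks in the mean, 4 in MCAM-high cells and 2 other peaks between control populations. At lead peaks near 1 CPM in control libraries, depth limits the fold change.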
